A study of Arabidopsis thaliana with 8 samples.

Results

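The genes described here are 84 Arabidopsis thaliana genes whose array description names calmodulin, a calcium-binding protein or an EF hand, chosen by a search of the descriptions that left out WRKY factors. They are 84 of the 21500 genes on the array, with 1 probe each, and all 84 have a locus in RefSeq. By description they were sorted into 6 calmodulins, 30 calmodulin-like proteins, 5 calcium-dependent protein kinases, 29 calmodulin-binding proteins and 14 other calcium-binding proteins. The search itself used no measured value, but the genes were chosen with earlier results of these data known. A total of 44 are called by a RefSeq symbol or synonym and 40 by their AGI code.

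Shoots of 13-day-old Columbia-0 seedlings were compared whose primary root had been cut by razor, 5 mm below the base of the shoot, or left unwounded. They were taken 30 or 360 min later, and the question was how the shoot responds to a wound made in the root. All seedlings grew on sucrose-containing Murashige and Skoog medium in long days, and no mutant or transgenic line was used. Each of the 8 two-colour Agilent arrays carried RNA of root-wounded and of unwounded shoots of the same time, so that each time had its own controls. Per time point 2 biological replicates were hybridised, and each filled a pair of arrays that differed in which RNA carried which dye. Values are log2 ratios of root-wounded over unwounded shoots, a mean is followed by the SD of the 2 replicates, and n = 2 except where a replicate is named as missing. Tests are limma's moderated test over all tested genes, and a gene is said to rise or fall only at an adjusted p under 0.05.

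Calcium ions act as an intracellular signal, and a rise in their concentration is read by proteins with EF hands, a helix-loop-helix fold that holds the ion. Calmodulin has no activity of its own and works by binding other proteins, while plants also have a large family of calmodulin-like proteins and kinases that carry EF hands in the same chain as the kinase. Wounding and touch are known to raise calcium in plant cells, and the TCH genes were first found as transcripts that increase when a plant is touched.

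The descriptions are those of the array and gather more than EF-hand proteins. The 29 calmodulin-binding proteins are targets of calmodulin, among them transcription factors and kinesin, and do not themselves need an EF hand. AT1G12900, described as calreticulin, is listed in RefSeq as GAPA-2, a glyceraldehyde-3-phosphate dehydrogenase of the chloroplast, and AT2G03150, described as a putative calmodulin, is listed as emb1579. The search also misses known sensors whose array description reads differently. Of these CML37 and the calcineurin B-like proteins CBL1, CBL9 and CBL10 are given further on, and other sensors outside the search were not counted. CAM6, a seventh calmodulin gene, was not matched to a probe.

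Of the 84 genes, 81 were bright enough to be tested, and 63 were well above background in every channel of all 8 arrays. AT3G28140, AT1G24620 and AT1G05990 were too dim. All 4 replicates had a value for 69 of the 81, and the other 12 lost a replicate to a spot marked as an outlier. Signals were lower at 30 min, where the median in the red channel was 184 to 271 per array, than at 360 min, where it was 323 to 431, and precision is limited by how few arrays there are. The 6 shoot markers, such as RBCS1A, were well above background on all arrays. So were 5 of 9 root markers, among them BGLU23 and CASP1. None of the root markers passed the test at 30 min, and PER39 was the 1 that did at 360 min, at -0.38, while RBCS1A and PSAD-1 rose by 0.26 each at 360 min. Their part in the results was not tested. In RNA of whole shoots, more RNA per cell and more cells of a type cannot be told apart.

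At 30 min, 13 of the 81 tested genes rose in shoots of root-wounded seedlings and none fell. The share that rose was 16.0%, against 4.52% of all 19177 genes tested at that time, and 2.16% of all genes fell. At an unadjusted p under 0.05 there were 27 genes, all of them higher and 0 lower, which is 33.3% against 16.2% of all genes. The median of the 81 was 0.05, against -0.0013 over all tested genes. Of the 81, 57 lay above 0 and 24 below, where 9412 of all 19177 genes lay above 0 and 9765 below. Whether the whole group shifted was not tested. The group medians were 0.05 in replicate 1 and 0.06 in replicate 2. Calmodulin-like genes made up 8 of the 13, calmodulin-binding proteins 3, calmodulins 1 and kinases 1. All 13 were higher on each of the 4 arrays. CML39 is counted among them, but met the brightness filter only through its root-wounded arrays at 30 min. With either 30 min replicate left out, fewer of the 13 passed, and fewer of all genes passed as well. TCH2, TCH3, CML38 and CML39 kept their calls in both of these fits.

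**Figure D1:**
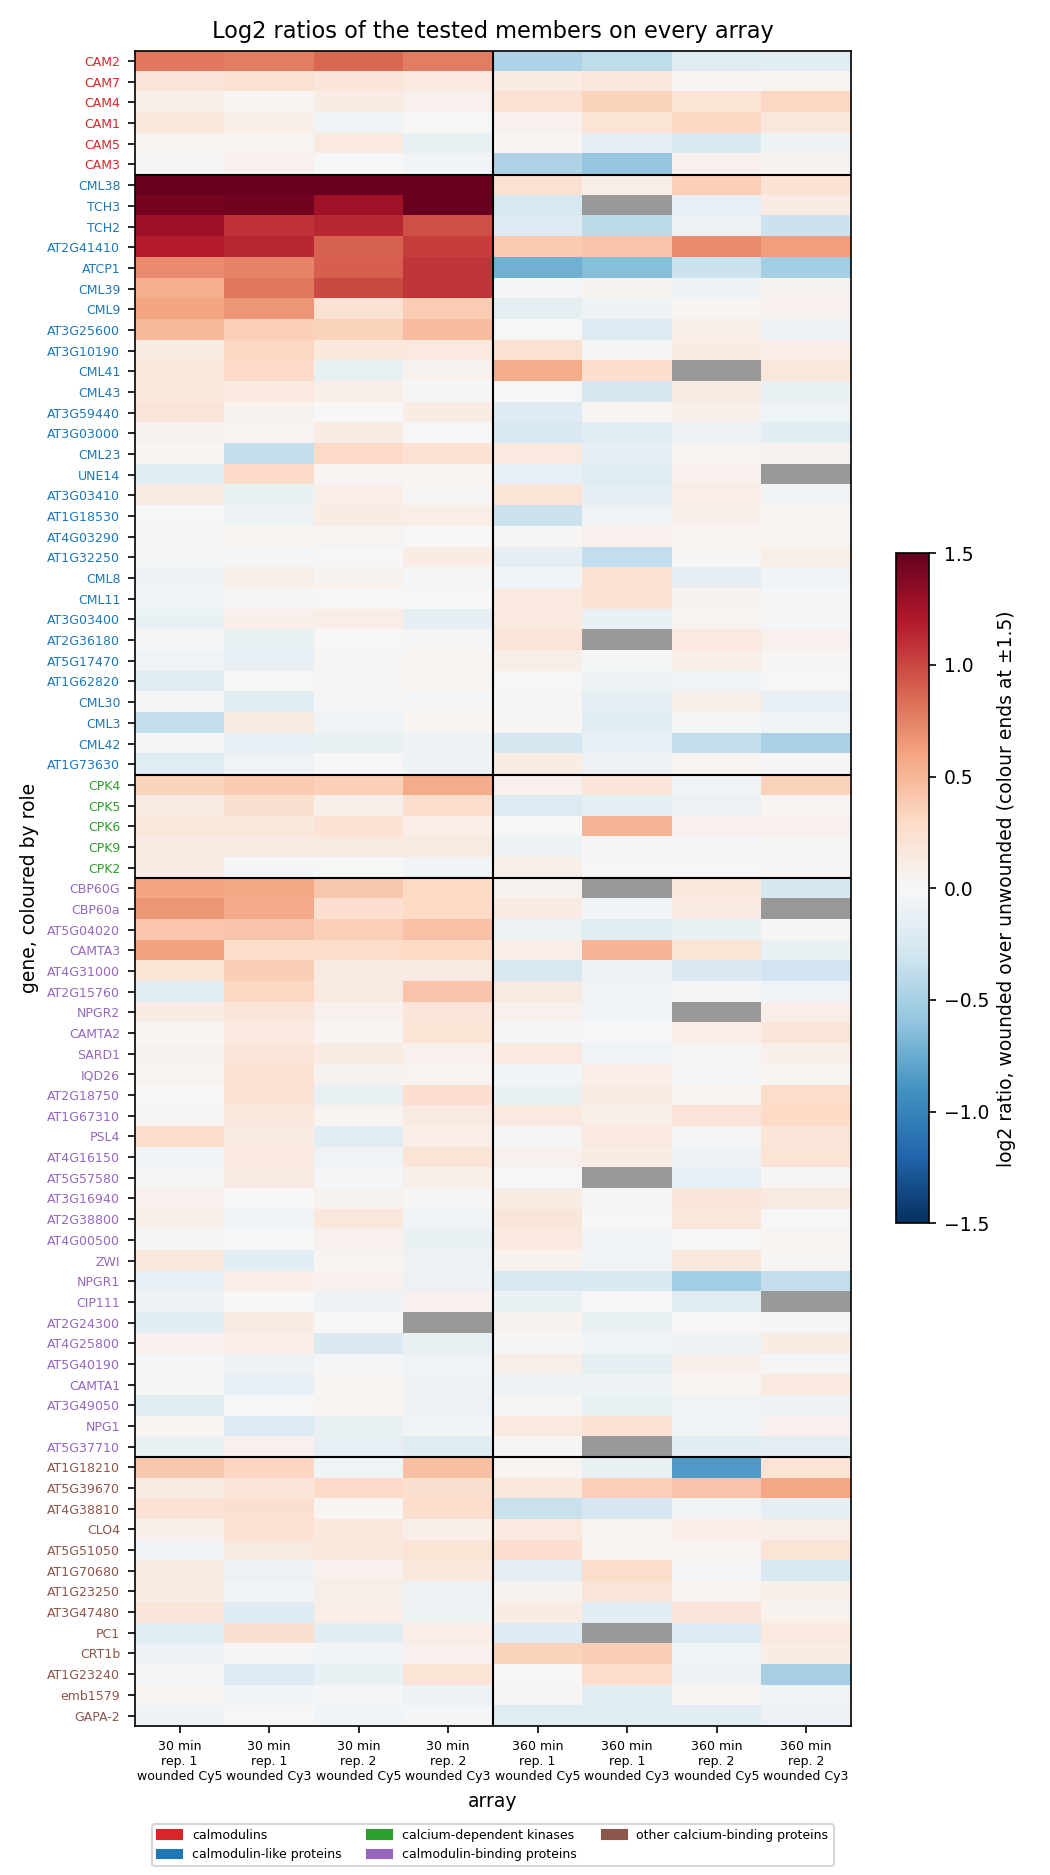
Heat map of the log2 ratio, root-wounded over unwounded, of the 81 tested genes on each of the 8 arrays. Rows are genes, coloured by role and sorted within it by the 30 min mean, and columns are arrays named by time, replicate and the dye of the wounded RNA. Red is higher and blue lower in root-wounded shoots, the colours end at ±1.5, and grey marks spots left out as outliers. The red blocks at 30 min sit at the top of the calmodulin and calmodulin-like rows and are pale at 360 min.

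Among the calmodulins, which encode the same protein or nearly the same protein in Arabidopsis, CAM2 was the 1 of 6 that rose at 30 min. Its ratio was 0.79 and 0.77 on the arrays of replicate 1 and 0.86 and 0.77 on those of replicate 2. The 4 arrays lay within 0.1 of each other, at a mean of 0.80 ± 0.03 (adjusted p = 0.00199), or 1.74-fold. CAM7 was at 0.19 ± 0.03 and did not pass (adjusted p = 0.0793), although it was positive on all 4 arrays. The other 4 lay between 0.01 for CAM3 and 0.07 for CAM4, with adjusted p-values from 0.495 to 0.985. Probe sequences were not used here, so cross-hybridisation between these near-identical genes was not tested. CAM3 and CAM5, which are known to encode the same protein as CAM2, were at 0.01 and 0.03.

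Of the calmodulin-like genes, 8 of 29 tested rose at 30 min, with a median over the 29 of 0.04. CML38, a calmodulin-like protein known to gather in RNA granules under low oxygen, had the highest ratio of the 81 genes. It reached 1.80 and 1.91 on the arrays of replicate 1 and 1.66 and 1.77 on those of replicate 2. The log2 signal of the channel was 7.11 and 6.997 in unwounded shoots and 8.97 and 8.71 in root-wounded shoots, so the groups were far apart. CML38 rose by 1.79 ± 0.10 (3.45-fold, adjusted p = 7.82e-05). The deposited log ratios, with another background correction, gave 2.86 for CML38, so the size of its fold depends on the processing.

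TCH3 (CML12) and TCH2 (CML24), both known for rapid induction by touch, came next. TCH3 was at 1.44 and 1.45 in replicate 1 and at 1.27 and 1.57 in replicate 2, a mean of 1.43 ± 0.01 (2.70-fold, adjusted p = 0.000267). TCH2 was at 1.28 and 1.08 in replicate 1 and at 1.13 and 0.97 in replicate 2. Its mean was 1.12 ± 0.09 (2.17-fold, adjusted p = 0.000291). The unwounded channels of TCH2 differed between the replicates, at log2 signals of 8.72 and 8.09, and the ratio within each replicate was nearly the same. AT2G41410, described as a calmodulin-like protein, was the fourth gene with at least a 2-fold increase. Its 4 arrays gave 1.18, 1.13, 0.88 and 1.04, a mean of 1.06 ± 0.14 (adjusted p = 0.00142).

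**Figure D2:**
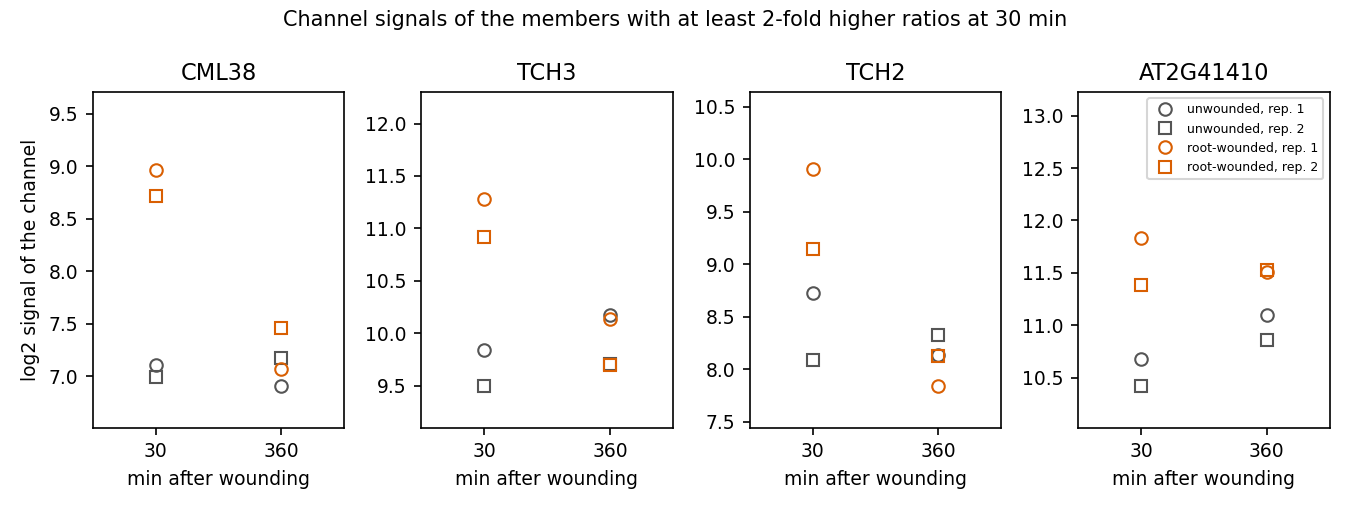
Log2 channel signals, after normalization between arrays and averaged over the dye pair, of the 4 genes with at least 2-fold higher ratios at 30 min, by time after wounding in min. Grey symbols are unwounded and orange symbols root-wounded shoots, circles replicate 1 and squares replicate 2, and outlier spots are kept here. At 30 min each orange symbol lies above the grey symbol of its replicate, and at 360 min that distance is smaller.

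Smaller increases were seen for 4 further calmodulin-like genes. ATCP1, whose description compares it with a salt-inducible calcium-binding protein, was at 0.72 in replicate 1 and 0.98 in replicate 2 (mean 0.85 ± 0.18, adjusted p = 0.00439). CML39, which lies next to CML38 among the protein-coding genes of RefSeq, was not well above background in unwounded shoots on any of the 4 arrays and was so in root-wounded shoots on all 4. As a bound on the mean of the arrays with this processing, and not on each array, its level was at least 1.63-fold higher after wounding. The measured ratios of the arrays were 0.54, 0.79, 0.99 and 1.07 (adjusted p = 0.00425). CML9, known for a part in salt and abscisic acid responses, was at 0.60 and 0.66 in replicate 1 and at 0.23 and 0.38 in replicate 2. It rose by 0.47 ± 0.23 (adjusted p = 0.0316), and without replicate 1 the ratio was 0.31 and no longer passed. AT3G25600, described as a putative calmodulin, was at 0.43 and 0.40 in the replicates and rose by 0.41 ± 0.02 (adjusted p = 0.00436). The remaining 21 tested calmodulin-like genes ran from -0.08 for AT1G73630 to 0.18 for AT3G10190. CML41 was well above background on 1 of 4 root-wounded and 0 of 4 unwounded arrays at this time, and is given no fold. CML42 was at -0.07 ± 0.03.

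Genes that lie next to each other did not all share a value at 30 min. There were 6 pairs of neighbouring genes among the 84 in RefSeq's order of protein-coding genes. Both genes rose in the pair of CML39 and CML38 on chromosome 1, but CML39 was tested only through its root-wounded arrays at 30 min. In the pair of TCH2 and CAM1 on chromosome 5, TCH2 was at 1.12 and CAM1 at 0.04. In the pair of CML23 and CAM4 the means were 0.04 ± 0.29 and 0.07 ± 0.03 and neither passed, and the replicates of CML23 lay far apart. None of the other 3 pairs held a gene that passed at 30 min. TCH3 (AT2G41100) and CAM2 (AT2G41110), which have close AGI codes, both rose, but are not next to each other in that order.

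Of the 5 calcium-dependent protein kinases, which join a kinase domain to a calmodulin-like domain in 1 chain, CPK4 rose. CPK4, known for its part in abscisic acid signalling, was at 0.34 and 0.39 in replicate 1 and at 0.36 and 0.55 in replicate 2. The mean was 0.41 ± 0.07 (adjusted p = 0.00450). CPK5 and CPK9 had means of 0.17 and 0.13 and did not pass (adjusted p = 0.118 and 0.136). CPK6 was well above background on 0 of 4 unwounded and 3 of 4 root-wounded arrays. Its bound on the mean with this processing was 1.07-fold higher, and it did not pass (adjusted p = 0.214). CPK2 was at 0.01.

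Among the calmodulin-binding proteins, 3 of 28 tested rose at 30 min, by less than 2-fold each. CBP60G, known as a regulator of salicylate synthesis in defence, was at 0.58 in replicate 1 and 0.35 in replicate 2. It rose by 0.46 ± 0.17 (adjusted p = 0.0275). Its relative SARD1, which is known to act in the same pathway, was at 0.10 ± 0.02 (adjusted p = 0.251), and CBP60a, known as a negative regulator of immunity, was at 0.45 ± 0.24 and did not pass (adjusted p = 0.0692). CAMTA3, a calmodulin-binding transcription activator, was at 0.60, 0.27, 0.28 and 0.29 on its 4 arrays. It rose by 0.36 ± 0.11 (adjusted p = 0.0446), with 1 array well above the other 3. CAMTA2 was at 0.10 and CAMTA1 at -0.05, and neither passed. AT5G04020, described as a calmodulin-binding protein, rose by 0.41 ± 0.01 (adjusted p = 0.00416), with ratios from 0.36 to 0.44 on the 4 arrays.

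None of the 13 tested other calcium-binding proteins passed at 30 min, and 4 had an unadjusted p under 0.05. This set holds the calreticulin CRT1b and the caleosin CLO4, which bind calcium in the endoplasmic reticulum and on oil bodies. CRT1b was at -0.01 ± 0.03 and CLO4 at 0.13 ± 0.02. The highest was AT1G18210, at 0.28 ± 0.12 (adjusted p = 0.137).

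**Figure D3:**
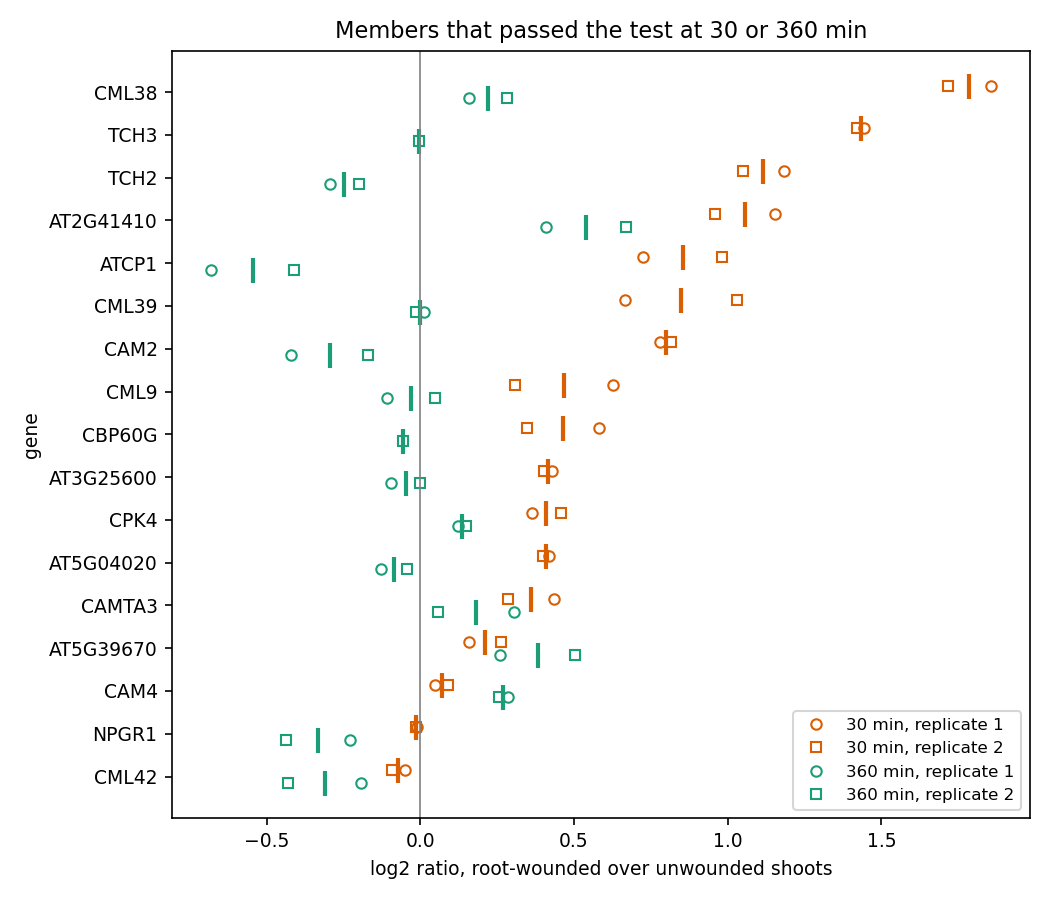
Log2 ratios, root-wounded over unwounded shoots, of the 17 genes that passed the test at 30 or 360 min, with 1 symbol per replicate and a bar for the mean. Orange is 30 min and green 360 min. The orange symbols of the upper 13 genes lie to the right of 0, and their green symbols lie to the left of the orange ones, except that 1 green symbol of CAMTA3 lies between its orange ones; TCH3 and CBP60G have 1 replicate at 360 min.

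At 360 min, 3 of the 81 genes rose and 4 fell. These shares were close to those of all genes, since 7.3% of all 19146 genes tested at 360 min passed, 3.08% higher and 4.22% lower, against 8.64% of the 81. At an unadjusted p under 0.05 there were 22, of which 13 were higher and 9 lower, or 27.2% against 21.3% of all genes. The median of the 81 was 0.0038, and that of all genes 0.0046. None reached a 2-fold ratio. These calls rest on a spread estimated over both times. With the 360 min replicates fitted alone, no gene of the 81 passed, with 18 at an unadjusted p under 0.05. Of all genes, 0.413% passed in that fit. Leaving out either 30 min replicate gives the same 360 min result as that fit and is not a further test. With either 360 min replicate left out, some of the genes that had passed lost their calls. With median normalization in place of loess, 0 rose and 2 fell, and 5.29% of all genes passed.

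AT2G41410 rose at 360 min too, the 1 gene of the 13 to do so. Its ratio was 0.39 and 0.43 in replicate 1 and 0.71 and 0.63 in replicate 2, a mean of 0.54 ± 0.18 (adjusted p = 0.0215). The 4 arrays at 360 min all lay below the 4 arrays at 30 min. AT5G39670, described as a calcium-binding protein, rose by 0.38 ± 0.17 (adjusted p = 0.0330). It was not well above background on any unwounded array at 30 min, so its early ratio is uncertain in size. CAM4 was the 1 calmodulin that rose at this time, by 0.27 ± 0.02 (adjusted p = 0.0199). Its arrays gave 0.23, 0.33, 0.21 and 0.31, and at 30 min it had been at 0.07.

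ATCP1 and TCH2, which had risen at 30 min, fell at 360 min. ATCP1 was at -0.72 and -0.64 in replicate 1 and at -0.32 and -0.50 in replicate 2, a mean of -0.55 ± 0.19 (adjusted p = 0.0268). TCH2 was at -0.25 ± 0.06 (adjusted p = 0.0463), negative on all 4 arrays. NPGR1, a calmodulin-binding protein of the family of NPG1, which is known for its need in pollen germination, was at -0.33 ± 0.15 (adjusted p = 0.0314). CML42, a calmodulin-like protein known for its part in trichome branching and in responses to insects, was at -0.31 ± 0.17 (adjusted p = 0.0454). NPGR1 and CML42 were near 0 at 30 min, at -0.01 and -0.07.

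The other genes that had risen at 30 min passed neither way at 360 min, 10 of 13 in all. CML38 was at 0.16 and 0.28 in the replicates, a mean of 0.22 ± 0.09 that did not pass (adjusted p = 0.0752). TCH3 had a value in replicate 2 alone, at -0.0033. CAM2 was at -0.42 and -0.17, a mean of -0.30 ± 0.18 (adjusted p = 0.0586), and was negative on all 4 arrays. CML9 was at -0.03 ± 0.11. CAM3 differed between replicates, at -0.52 in replicate 1 and 0.06 in replicate 2 (mean -0.23 ± 0.41, adjusted p = 0.376). Without replicate 2 it was at -0.52 and passed, and without replicate 1 it was at 0.06. CML41 was at 0.41 from replicate 1 alone (adjusted p = 0.101).

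The difference between the times was tested in the same model as the 360 min ratio minus the 30 min ratio. It was lower for 9 of the 81 genes and higher for none, 11.1% in all. Of all 19145 genes tested, 7.39% passed, 4.83% lower and 2.56% higher. With either 30 min replicate left out, fewer of the 9 passed, and fewer of all genes passed as well. At an unadjusted p under 0.05 there were 22, of which 21 were lower and 1 higher, or 27.2% against 21.7% of all genes. All 13 genes that rose at 30 min had a smaller ratio at 360 min, and for 8 of them, 61.5%, the difference passed. Genes picked for a high early ratio tend to have a smaller later one by that choice, and of the 866 genes of the whole array that rose at 30 min and were tested for the difference, 96.3% had a smaller ratio and 64.4% passed as lower. The 13 were therefore close to all genes that rose. The calmodulin-like genes made up 6 of the 9. The differences were -1.56 for CML38, -1.40 for ATCP1, -1.36 for TCH2 and -1.09 for CAM2. TCH3 differed by -1.44, with 1 replicate at 360 min that is assumed to vary like the others. CML39 passed too, though it met the brightness filter only through its root-wounded arrays at 30 min. It is given no size, since its signal at 360 min was well above background on 1 of 4 unwounded and 0 of 4 root-wounded arrays. AT5G04020 differed by -0.50 and AT3G25600 by -0.46. For AT2G41410 the difference was -0.52 and did not pass (adjusted p = 0.0530), and for CML9, CBP60G, CPK4 and CAMTA3 it did not pass either (adjusted p = 0.0705, 0.0820, 0.0553 and 0.388). Per the file headers the images of each dye pair were quantified on a day of their own, so that day and the time after wounding cannot be told apart in this comparison. Each ratio is taken within an array against controls of the same time.

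**Figure D4:**
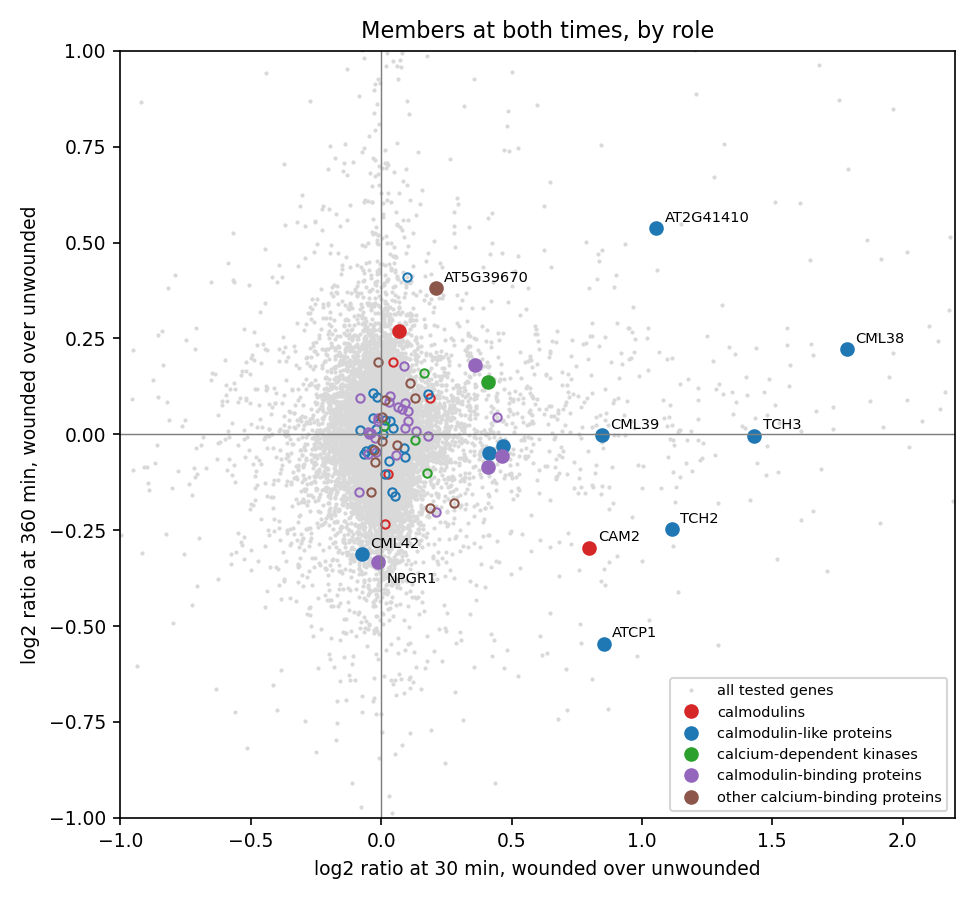
Log2 ratio at 30 min (horizontal) against that at 360 min (vertical), root-wounded over unwounded. Coloured points are the 81 tested genes by role, filled where the test was passed at either time, and grey points are all tested genes within the axes. TCH3, CML38, CML39, TCH2, CAM2 and ATCP1 lie far to the right of 0 and near or under 0 on the vertical axis, CML38 at 0.22, while AT2G41410 lies to the right and above 0.

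Calcium proteins outside the search were counted from a list of kinases, pumps, exchangers and channels, with 95 genes on the array of which 82 were tested. At 30 min 13 of them rose and 4 fell, 20.7% in all, where 6.69% of all genes passed. At 360 min 2 rose and 6 fell, 9.76%, where 7.3% of all genes passed. By role, 9 of 45 kinases rose and 4 fell at 30 min, 3 of 20 pumps and exchangers rose and 1 of 17 channels rose. Beside this list, the sensors CML37, CBL1, CBL9 and CBL10 were looked at by name, and 2 of these 4 rose at 30 min. Other sensors outside the search were not counted.

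The calcineurin B-like protein CBL1, a sensor that works by binding kinases of the CIPK family, was at 1.27 and 1.14 in replicate 1 and at 1.19 and 1.27 in replicate 2. It rose by 1.22 ± 0.02 at 30 min (adjusted p = 8.40e-05) and was at 0.12 at 360 min (adjusted p = 0.135). Its close relative CBL9 was at 0.02 ± 0.07 and CBL10 at -0.11 ± 0.06, and neither passed. CIPK9, a kinase known in potassium nutrition, rose by 1.12 ± 0.05 (adjusted p = 0.000286). CPK28, a calcium-dependent kinase known to limit immune signalling, rose by 1.17 ± 0.05 (adjusted p = 0.000981), and the calcium pump ACA1 by 0.97 ± 0.02 (adjusted p = 0.000400). At 360 min CIPK9 was at 0.02, CPK28 at -0.01 and ACA1 at 0.21, and none of the 3 passed. CML37 was at 0.26 ± 0.10 (adjusted p = 0.0368) and passed in 7 of 14 alternatives.

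CBL-interacting kinases lay on both sides. The highest of them at 30 min was CIPK11, at 1.48 ± 0.02 (adjusted p = 0.00493). The lowest were CIPK5 at -0.84 ± 0.22 (adjusted p = 0.00373) and CIPK14 at -0.71 ± 0.003 (adjusted p = 0.00229). At 360 min CIPK11 was at -0.11 ± 0.51, CIPK5 at 0.27 ± 0.10 and CIPK14 at 0.22 ± 0.16, and none of these passed. CIPK7 fell at 30 min, with ratios of -0.55 and -0.44 in replicate 1 and of -0.49 and -0.31 in replicate 2 (mean -0.45 ± 0.07, adjusted p = 0.00343). At 360 min it rose, at 0.34 ± 0.01 (adjusted p = 0.0149), with all 4 arrays above 0. CIPK3 fell by 0.65 ± 0.05 at 360 min (adjusted p = 0.0240), CIPK20 by 0.47 ± 0.01 (adjusted p = 0.00944) and CIPK21 by 0.30 ± 0.03 (adjusted p = 0.0166). CIPK20 had fallen at 30 min too, by 0.27 ± 0.10 (adjusted p = 0.0275). The 360 min calls of CIPK7, CIPK20 and CIPK21 were lost with 360 min fitted alone, and that of CIPK3 without 360 min replicate 1. Leaving out either 30 min replicate gives the same 360 min result as that fit and is not a further test. On the deposited log ratios the 360 min calls of CIPK7, CIPK21 and CIPK3 were lost as well. CIPK20 lay between -0.29 and -0.91 at 360 min over the alternatives. CIPK7 and CPK28 lost their 30 min calls without either 30 min replicate.

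How far the 30 min values depend on the processing was seen by recomputing them in up to 14 other ways. CML38, TCH3, TCH2 and CML39 passed in every one of these that gave a value. CML39 was tested only through its root-wounded arrays at 30 min, and gave no value where both channels had to be well above background. AT2G41410 passed in 13 of 14, and ATCP1, CAM2, AT3G25600, CPK4 and AT5G04020 in 12 of 14, each losing the call where a 30 min replicate was left out. CML9 and CBP60G passed in 9 of 14 and CAMTA3 in 7 of 14. No ratio of the 13 fell below 0.28 in any alternative, and none changed sign. The lowest value of CML39 was 0.46, with background left uncorrected, and the highest 2.77, on the deposited log ratios, while CBP60G lay between 0.29 and 0.94.

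**Figure D5:**
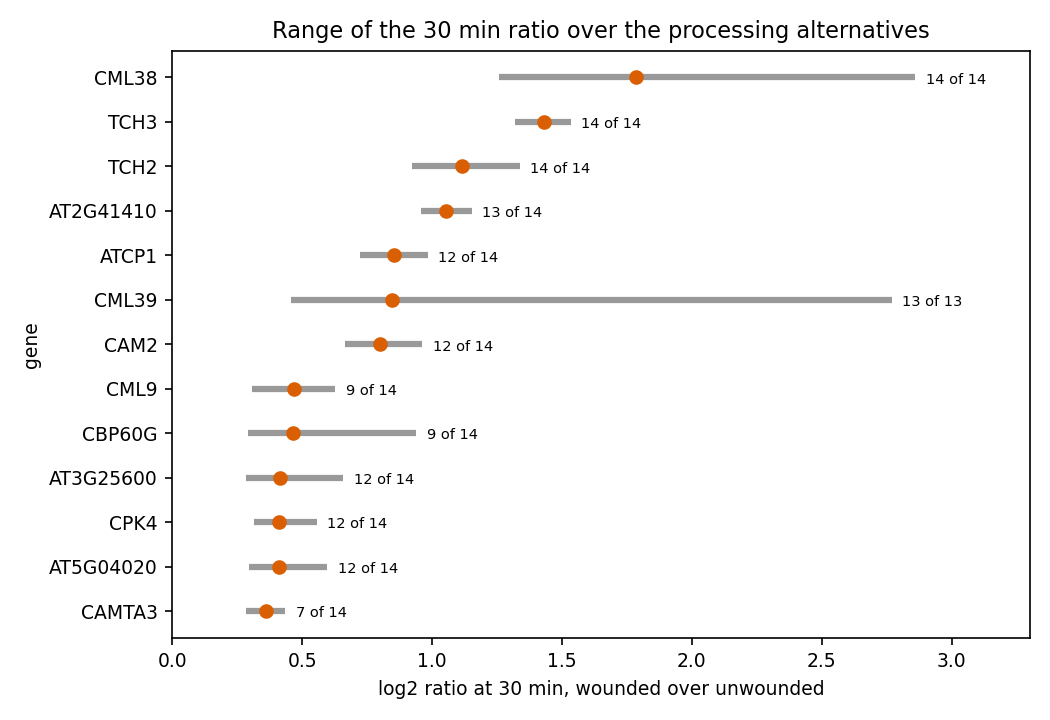
Range of the 30 min log2 ratio, root-wounded over unwounded, of the 13 genes that rose, over the processing alternatives. The orange point is the reported value, the grey bar spans the alternatives, and the figures at the right count the alternatives in which the gene passed. The bars of CML38 and CML39 are the widest, at 1.26 to 2.86 and 0.46 to 2.77.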

How the data were processed

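Shoot RNA was measured on 8 two-colour arrays, and the submitters' processing notes name Agilent Feature Extraction 7.1.1. Scanner files as deposited hold, per the file headers, the mean intensity and local background intensity of 22575 spots in both channels, on a linear scale without normalization, of which 1075 are controls. The deposited series matrix holds log10 ratios of red over green that equal those of the scanner files. Its direction and scale are therefore those of the scanner ratio, and its column medians were 0 on 6 arrays, -0.00183 on 1 and 0.000378 on 1. Sequences and coordinates are not shown, and the genome build is not given in the sources used here.

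From the intensities, log2 ratios were computed with normexp (offset 50) and loess within each array in limma 3.58.1 (R 4.3.3), with control and outlier spots at weight 0. Dye-swapped arrays were turned to wounded over unwounded and averaged to 1 replicate. Outlier spots (13 to 888 an array) were dropped, and a replicate with 1 in either array of its pair has no value for that gene. A gene was tested if well above background, a signal over 2.6 times the background deviation per the file headers, on all 4 arrays of 1 or more of the 4 conditions, and 19178 genes were. A coefficient per time was fitted with lmFit and eBayes over the 4 replicates (2 residual degrees of freedom, prior 3.58), 2-sided, with Benjamini-Hochberg adjustment over all tested genes at 0.05. The steps were tested on simulated data. A bound sets the bright group's mean against the dim group's mean of, per array, the lowest signal well above background or the probe's own where higher, after normalization per channel. The labels call the replicates biological, and the p-values measure the spread between these samples.

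Named are, of the 84, those with 1 sign on all arrays and past the threshold (up to 14 highest and 10 lowest at 30 min, 10 each way at 360 min), 8 each way for the difference, where the sign was not asked for, the calmodulins, TCH2, TCH3, CML9, CML37 to CML42, CBL1, CBL9 and CBL10, and up to 4 other calcium genes per time. CML40 was not matched. Other named genes (CPK2, CPK5, CPK6, CPK9, CIPK5, CIPK11, CIPK14, CBP60a, SARD1, CAMTA1, CAMTA2, CRT1b, CLO4, CML23, AT1G18210, AT1G73630, AT3G10190) were chosen after their values were seen. The members and lists were chosen with earlier results of these data known. Same-numbered replicates of the 2 times did not deviate together (r = -0.03). With 1 deviation per time this cannot show whether the numbers pair samples, and they were not treated as pairs. Per the file headers each day of Feature Extraction (image quantification) held 1 dye pair, so the values per replicate are also those within such a day. Alternatives changed the background correction, normalization, filter, outlier spots, prior, block and replicates.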

Additional observations from a re-analysis of the deposited data

Results flagged for a closer look

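For the following genes the ratio of root-wounded over unwounded shoots differed between 360 and 30 min by the test of the difference itself (limma, adjusted over all genes), and n = 2 at each time. Of the 84 genes, the difference was -1.56 ± 0.08 (SE) for CML38, -1.44 ± 0.07 for TCH3 from 1 replicate at 360 min, -1.40 ± 0.12 for ATCP1 and -1.36 ± 0.07 for TCH2. It was -1.09 ± 0.09 for CAM2, -0.50 ± 0.06 for AT5G04020 and -0.46 ± 0.06 for AT3G25600. The fitted value of CML39 was -0.85 ± 0.12, which is uncertain in size because its signal was not well above background in unwounded shoots at 30 min or in root-wounded shoots at 360 min on any array. The adjusted p-values of these 8 ran from 0.000798 for CML38 to 0.0167 for CML39. The 1 other gene of the 84 whose difference passed was AT4G31000, at -0.41 (adjusted p = 0.0352), named after its value was seen.

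Of the 82 tested genes on the list of other calcium genes, the difference passed as lower for 11 and as higher for 4. That was 18.3% in all, where 7.39% of all genes passed, and the fitted differences ran from -1.58 to 1.11. Among the other calcium genes named by their adjusted p at each time, with the sensor CBL1, it was -1.19 ± 0.11 for CPK28 and -1.09 ± 0.05 for CBL1. It was -1.09 ± 0.07 for CIPK9 and -0.75 ± 0.07 for ACA1. CIPK7 differed the other way, by 0.79 ± 0.06 (adjusted p = 0.00283), from -0.45 at 30 min to 0.34 at 360 min. No explanation of these differences was tested.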

How the results depend on the processing

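The 30 min count of 13 was 10 to 17 under the alternatives that kept both 30 min replicates, with no gene lower in any. Of all genes, 5.61% to 9.47% passed at 30 min in these, against 6.69% in the main fit. With 30 min fitted alone 17 genes passed, where 8.76% of all genes passed, and leaving out either 360 min replicate gives the same 30 min result. With either 30 min replicate left out, fewer of the 13 passed, and fewer of all genes. For 360 min, where 7 had passed, leaving out either 360 min replicate lost some of these. Leaving out either 30 min replicate gives the same 360 min result as 360 min fitted alone. For the difference, where 9 had passed, fewer passed with either 30 min replicate left out. More passed with either 360 min replicate left out, and the share of all genes moved the same way. The 360 min count also fell to 3 with a normexp offset of 10, where 3.71% of all genes passed. On the authors' log ratios it fell to 0 (17 at an unadjusted p under 0.05), where 0.679% of all genes passed. It fell to 2 with median normalization (5.29% of all genes), to 4 with outlier spots kept (4.96%) and to 0 with 360 min fitted alone (0.413%). In the main fit 7.3% of all genes had passed at 360 min. The fits that leave out a replicate or a time estimate the spread from fewer samples. Why the counts moved was not tested for any alternative. Of the genes that passed at 360 min, TCH2 did so in 3 of 14 alternatives, CML42 in 5 of 14, AT5G39670 in 5 of 13, CAM4 in 7 of 14, NPGR1 in 8 of 14, and AT2G41410 and ATCP1 in 9 of 14. These tallies count the fit of 360 min alone more than once, since leaving out either 30 min replicate repeats it. No result of a named gene that had passed changed direction. With the replicate number as a block 15 genes passed at 30 min, 7 at 360 min and 11 by the difference of the times, holding 13, 6 and 9 of the genes reported. Of all genes, 6.45%, 6.31% and 6.65% passed in that fit. The replicate numbers were not treated as pairs in the main fit, and the block is given only here. On the authors' log ratios the ratio of CBL1 at 30 min was 1.92 and that of AT3G25600 0.66. Faint signal limits the size of the folds of CML39, CML41, CPK6 and AT5G39670, whose unwounded shoots at 30 min were not well above background on any array.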
